A study of Mus musculus with 6 samples.

Results

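Mechanically gated ion channels open when the membrane around them is stretched, bent or pulled, and let cations into or out of the cell. Transcripts of 9 channel genes linked to such gating were followed in tendon cells kept with or without medium conditioned by sensory ganglia. The genes were Piezo1, Piezo2, Trpv2, Trpv4, Trpc1, Trpm7, Kcnk2, Tmem63a and Tmem63b. They were taken by gene name from a table of 24413 genes, and each of the 9 had a row. The set was chosen by its known function, but with the conditioned-medium contrast of these libraries already known, including the difference in Piezo2. The values of the 9 genes in that contrast are therefore given as a description, without p-values.

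RNA-seq was made from cells of mouse Achilles tendon, the tendon that joins the calf muscle to the heel. The tendons came from 3 male mice aged 12 weeks with the genotype Tppp3ECE/+;R26RtdT-CreERT2;Scx-GFP, shared by both groups. This genotype pairs a Tppp3-driven inducible Cre and a tdT reporter with a GFP reporter of the tendon gene Scx. The cells were sorted with gates for GFP and tdT and kept for 24 h either in conditioned medium (3 libraries) or in control medium with 1% FBS (3 libraries). For the conditioned medium, dorsal root ganglia (DRG), which hold the cell bodies of sensory neurons, were taken from 3 male C57BL/6J mice aged 12 weeks. They were cultured for 4 to 5 days, first with the antimitotic reagents 5-fluoro-2-deoxyuridine and uridine at 20 µM each. The medium was then changed to one with 1% FBS, harvested daily, filtered at 0.22 µm and frozen. The comparison asks what this medium does to the tendon cells, and material from the ganglia cannot be told apart from depletion of the medium or carry-over of the reagents.

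The libraries are described as biological replicates but are not tied to animals, so errors measure the spread between these libraries, which may be partly technical. They held 18775009 to 23462750 gene-assigned fragments with conditioned medium and 19954892 to 26061999 in control medium. Values are FPKM, fragment numbers divided by gene length and by library depth, as the authors deposited them. For every member but Piezo2 that length was the sum of all annotated exon bases, which is more than the longest transcript holds. It was 11315 bp for Trpm7, with a longest transcript of 7107 bp, and 4485 bp for Trpv2, with 3671 bp. Comparisons of level between genes therefore depend on the length used. Fold changes are differences of log2(FPKM + 1), conditioned minus control, with the standard error (SE) of a limma fit to 11678 genes whose mean over the 6 libraries was 1 FPKM or more. A gene is said to pass at a Benjamini-Hochberg adjusted p below 0.05, and 763 of the 11678 genes passed (6.53%), of which 291 were lower (2.49%) and 472 higher (4.04%) with conditioned medium. The 3 values of one group lay entirely above or below those of the other for 3032 genes (26.0%). The median log2 fold change of the 11678 genes was 0.0052. The sorted cells expressed the tendon genes Scx, Tnmd and Mkx, at 11.1 to 12.0, 14.9 to 18.4 and 1.30 to 1.44 FPKM with conditioned medium and at 12.7 to 13.8, 21.1 to 22.8 and 1.28 to 1.50 FPKM in control medium. Tppp3 itself, the gene of the lineage reporter, was low, at 0.777 to 1.12 FPKM with conditioned medium and 0.724 to 1.05 FPKM in control medium. The reporter marks cells by their history, so its presence does not require current Tppp3 transcript.

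Piezo1 and Piezo2 are very large proteins that assemble as trimers and open within milliseconds of a mechanical push. Piezo2 is best known as the channel of light touch and of the sense of limb position in sensory neurons. Piezo1 acts in endothelial cells, red blood cells and many connective tissues, and in tendon it takes part in the response of tenocytes to shear stress. Calcium that enters through such channels binds calmodulin and activates calcineurin and calmodulin-dependent kinases. Trpv2, Trpv4, Trpc1 and Trpm7 are cation channels of the transient receptor potential (TRP) family, Kcnk2 encodes the stretch-activated potassium channel TREK-1, and Tmem63a and Tmem63b belong to the OSCA/TMEM63 family.

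One channel of the 9 stood apart. Piezo2 fell to less than the control range in each conditioned library, while Piezo1, the most abundant of the 9, was at 1.06 times its control level. Of the 8 members with a mean of at least 1 FPKM, 0 were higher, 1 was lower and 7 did not pass, and Trpc1 lay under the filter and was not tested. The contrast was known when the members were chosen, so nothing is read from this count against the 6.53% of all genes that passed. The groups did not overlap for 4 of the 8, against 26.0% of all tested genes, with Piezo1 and Trpv2 above and Piezo2 and Tmem63b below their controls. For the same reason nothing is read from that count. The median log2 fold change of the 8 was -0.05.

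**Figure D1:**
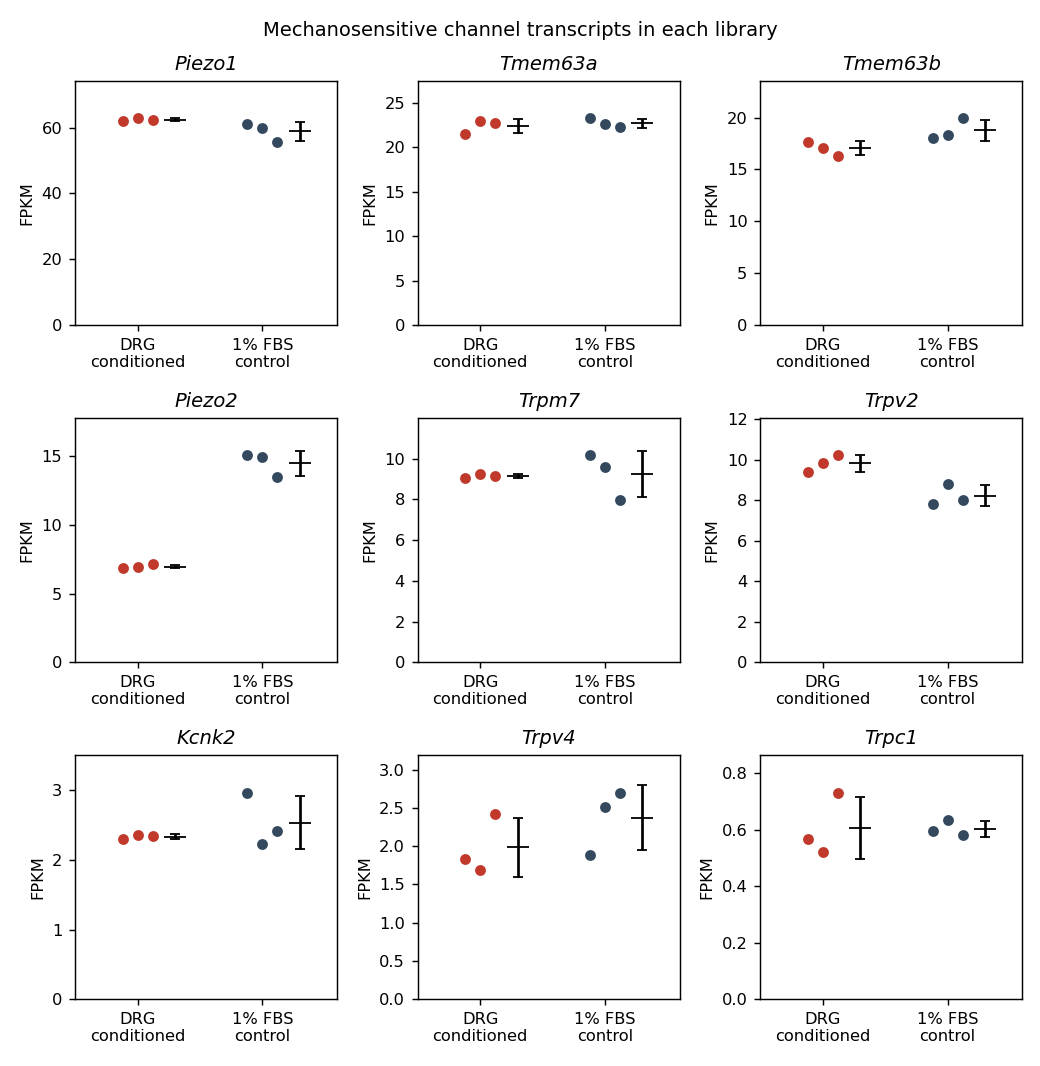
FPKM of the 9 channel genes in each library (points), with the mean and SD of each group of 3 libraries beside them; each panel has its own axis from 0, and panels run by control level. Piezo2 sits at 6.85 to 7.12 FPKM with conditioned medium and at 13.5 to 15.1 FPKM in control medium, while most other panels show neighbouring or overlapping points.

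Piezo2 (ENSMUSG00000041482) lies on the minus strand of chromosome 18 from 63010213 to 63387183 (mm10, GENCODE M21) and spans 376971 bp. Its level was 6.85, 6.93 and 7.12 FPKM in conditioned replicates 1, 2 and 3, against 15.1, 14.9 and 13.5 FPKM in control replicates 1, 2 and 3. The highest conditioned library was thus far below the lowest control library. These values rest on 2170, 1900 and 2435 fragments with conditioned medium and 5093, 5702 and 3952 fragments in control medium, so counting error is small beside the difference. The group means were 6.97 ± 0.139 FPKM with conditioned medium and 14.5 ± 0.890 FPKM in control medium (SD, n = 3 each), a ratio of 0.481. The log2 fold change was -0.96 ± 0.05 SE, and Piezo2 was 1 of the 291 genes that passed as lower. By fold change it was the 15th lowest of the 11678 genes, and the 3rd lowest among genes averaging 5 FPKM or more. In 15 of 15 alternative settings Piezo2 stayed lower and past the threshold, with log2 fold changes from -1.06 to -0.93. These settings reuse the libraries in which the difference was already known. They describe how the value depends on processing and are not a new test. In a culture of many cells, fewer Piezo2-expressing cells and less Piezo2 RNA per cell cannot be told apart.

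The FPKM of Piezo2 correspond to a gene length of 14566 bp, while the exons annotated in GENCODE M21 cover 17162 bp. For the other 8 members the 2 lengths were equal. The length behind the values bears on how high Piezo2 stands among other genes and only slightly, through the pseudocount, on its fold change. GENCODE lists 15 transcripts of Piezo2, and the table gives 1 value per gene, so isoforms are not separated. No annotated gene shared exon bases with it.

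The nearest expressed genes on either side of Piezo2 did not pass. Napg, an adaptor protein of membrane fusion 10.8 kb away, was at 8.72, 8.14 and 8.36 FPKM with conditioned medium and at 8.44, 8.72 and 8.08 FPKM in control medium. Its log2 fold change was -0.00061 ± 0.05 SE (limma adjusted p = 0.997). Txnl1, a thioredoxin-like protein and the nearest gene of at least 1 FPKM on the other side at 274 kb, had a log2 fold change of 0.05 ± 0.05 SE (limma adjusted p = 0.720).

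Piezo1 (ENSMUSG00000014444) lies on the minus strand of chromosome 8 from 122481698 to 122551329 (mm10). It was at 62.0, 62.8 and 62.4 FPKM with conditioned medium and at 61.2, 59.8 and 55.7 FPKM in control medium. The conditioned libraries were all above the control libraries, but the gap to control replicate 1 was small beside the spread of the controls. The means were 62.4 ± 0.406 FPKM with conditioned medium and 58.9 ± 2.83 FPKM in control medium (SD, n = 3 each). The log2 fold change of 0.08 ± 0.04 SE did not pass, and it did not pass in 15 alternative settings, where it ran from 0.02 to 0.11. By control level Piezo1 stood at the 97.2nd percentile of the genes in the table. The opposite-strand gene Ctu2, which encodes a tRNA-modifying protein, shares 2441 bp with its exons (24.6% of them), and whether the counting used strand is not given in the sources used here. Ctu2 itself was listed at 2.52 to 3.27 FPKM with conditioned medium and 2.41 to 3.07 FPKM in control medium, far below Piezo1. The nearest expressed neighbours, Rnf166 at 5.63 kb and Cdt1 at 16.7 kb, had log2 fold changes of -0.06 ± 0.07 SE and -0.07 ± 0.08 SE and did not pass (limma adjusted p = 0.713 and 0.710).

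The balance between the Piezo genes therefore differed between the media. Piezo1 was 9.05, 9.06 and 8.77 times the level of Piezo2 in conditioned replicates 1, 2 and 3, against 4.06, 4.00 and 4.14 times in control replicates 1, 2 and 3. The mean ratio was 8.96 ± 0.167 with conditioned medium and 4.07 ± 0.0685 in control medium (SD, n = 3 each). A ratio within a library does not depend on the scaling of that library, and its spread within each group was small. Piezo2 made up 10.0 ± 0.170% of the summed Piezo FPKM with conditioned medium and 19.7 ± 0.266% in control medium (SD, n = 3 each). Other pairs of relatives differed less between the media. Tmem63a was 1.32 ± 0.0898 times Tmem63b with conditioned medium and 1.21 ± 0.0894 times in control medium, with overlapping libraries. Trpv2 was 5.04 ± 0.801 times Trpv4 with conditioned medium and 3.53 ± 0.579 times in control medium, without overlap but with 4.21 in the lowest conditioned library and 4.13 in the highest control library (SD, n = 3 each).

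**Figure D2:**
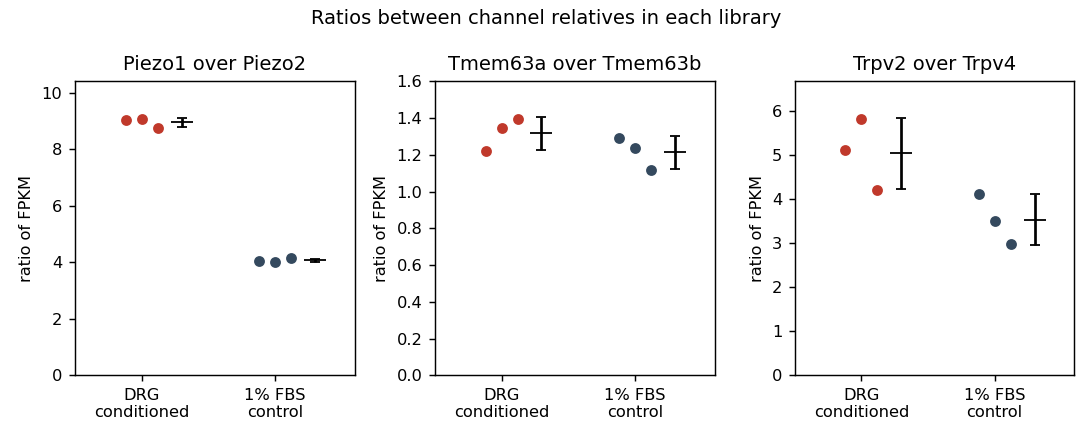
Ratio of FPKM between 3 pairs of related channels in each library (points), with mean and SD of each group of 3 libraries; the axes start at 0. The Piezo1 over Piezo2 ratio lies at 8.77 to 9.06 with conditioned medium and at 4.00 to 4.14 in control medium, while the Tmem63 ratio overlaps between the media.

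The promoter windows of Piezo1, Trpv2 and Tmem63b are shown because their conditioned and control values, besides those of Piezo2, did not overlap. They come from RefSeq (GRCm38.p6) and cover 300 bases around an annotated transcript start, most of them ahead of it, written 5′ to 3′ on the strand of the gene. Windows were found for 8 of the 9 members. Capitals mark matches, on either strand, to 5 motifs that were searched: the GC box GGGCGG bound by Sp-family factors, the TATA box TATAAA, the TEAD motif GGAATG, the AP-1 motif TGANTCA and the paired interferon regulatory factor motif GAAANNGAA. For Trpv2, which has 3 windows, the one with the TATAAA match is shown. That match lies at the 3′ end of the window, after the annotated start and not ahead of it. The Trpv2 window that begins at 62574236 matched none of the 5 motifs. A match describes letters and not a bound site.
Piezo1, chr8:122551280-122551579, minus strand: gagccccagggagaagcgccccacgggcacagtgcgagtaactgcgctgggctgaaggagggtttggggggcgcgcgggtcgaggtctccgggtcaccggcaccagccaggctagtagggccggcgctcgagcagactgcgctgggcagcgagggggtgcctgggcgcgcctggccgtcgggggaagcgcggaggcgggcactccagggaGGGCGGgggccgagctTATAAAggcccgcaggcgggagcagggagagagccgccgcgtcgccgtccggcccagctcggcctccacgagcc
Trpv2, chr11:62574263-62574562, plus strand: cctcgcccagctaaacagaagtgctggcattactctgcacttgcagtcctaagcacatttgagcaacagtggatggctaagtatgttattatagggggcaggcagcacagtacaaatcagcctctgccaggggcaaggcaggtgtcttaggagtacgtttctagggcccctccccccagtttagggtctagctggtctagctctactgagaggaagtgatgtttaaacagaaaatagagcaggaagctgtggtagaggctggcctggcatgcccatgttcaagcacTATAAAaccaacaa
Tmem63b, chr17:45686169-45686468, minus strand: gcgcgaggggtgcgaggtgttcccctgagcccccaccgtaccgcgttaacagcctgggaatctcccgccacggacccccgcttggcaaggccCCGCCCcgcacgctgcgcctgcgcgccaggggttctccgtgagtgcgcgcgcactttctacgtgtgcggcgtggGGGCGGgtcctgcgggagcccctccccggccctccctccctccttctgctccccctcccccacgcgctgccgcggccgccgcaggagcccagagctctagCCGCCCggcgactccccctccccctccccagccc

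The Piezo1 window was 75.0% G and C, and held 1 GC box and 1 TATAAA ahead of the start. Tmem63b had 3 GC boxes in a window of 76.0% G and C, and the Trpv2 window, at 50.3% G and C, had no GC box. Trpv4 and Trpc1 also had 3 GC boxes each, Tmem63a had 1, and the single window of Trpm7 matched none of the 5 motifs. Among 32851 mouse promoter windows of the same length, GGGCGG was found in 35.7%, TATAAA in 13.6%, GGAATG in 14.7%, TGANTCA in 7.81% and GAAANNGAA in 8.56%. The letters GAAANNGAA were in no window of the 8 members, GGAATG was in 1 of 3 windows of Trpv2 and 1 of 4 windows of Kcnk2, and TGANTCA was in 1 of 4 windows of Kcnk2.

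Trpv2 is a TRP channel found in muscle, neurons and immune cells, opened in mouse by strong heat and reported to respond to stretch. Among the members it had the largest positive fold change. It was at 9.39, 9.85 and 10.2 FPKM with conditioned medium and at 7.81, 8.80 and 8.03 FPKM in control medium. Each conditioned library was above each control library. The means were 9.81 ± 0.411 FPKM with conditioned medium and 8.21 ± 0.521 FPKM in control medium (SD, n = 3 each), and the log2 fold change was 0.23 ± 0.06 SE. It did not pass, and it passed in 3 of 15 alternatives: with only genes of at least 5 FPKM tested (0.23), with limma-voom on recovered fragments (0.26) and without control replicate 2 (0.28). Trpv2 lies on the plus strand of chromosome 11 from 62574486 to 62600515 (mm10).

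Trpv4, an osmotically and mechanically activated calcium channel known from cartilage and other skeletal tissue, was low. Its libraries read 1.84, 1.70 and 2.42 FPKM with conditioned medium and 1.89, 2.52 and 2.70 FPKM in control medium. Control replicate 1 lay within the conditioned range, so the groups overlapped. The log2 fold change was -0.17 ± 0.12 SE, the widest error among the 8 tested members, and did not pass. These levels rest on 130 to 232 fragments with conditioned medium and 179 to 269 in control medium. Trpv4 is on the minus strand of chromosome 5 from 114622152 to 114658421 (mm10).

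Trpm7, a channel for magnesium and calcium fused to a kinase, had a mean of 9.15 ± 0.0994 FPKM with conditioned medium and 9.24 ± 1.13 FPKM in control medium (SD, n = 3 each). Its libraries read 9.05, 9.25 and 9.15 FPKM with conditioned medium, between the highest and lowest control libraries at 10.2, 9.58 and 7.98 FPKM. The log2 fold change was -0.01 ± 0.08 SE. Trpm7 lies on the minus strand of chromosome 2 from 126791565 to 126876230. Trpc1, a subunit of receptor-operated and store-operated cation channels whose gating by stretch is disputed, was the lowest of the 9. It read 0.567, 0.523 and 0.732 FPKM with conditioned medium and 0.595, 0.636 and 0.580 FPKM in control medium, from 79 to 138 fragments with conditioned medium and 94 to 134 in control medium. Its mean of 0.607 ± 0.110 FPKM with conditioned medium was within the spread of 0.604 ± 0.0289 FPKM in control medium (SD, n = 3 each). Trpc1 lies on the minus strand of chromosome 9 from 95705082 to 95750375 (mm10).

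Kcnk2 lets potassium out of the cell when the membrane is stretched. It read 2.31, 2.37 and 2.34 FPKM with conditioned medium and 2.97, 2.23 and 2.42 FPKM in control medium. The groups overlapped through control replicate 2, and the log2 fold change of -0.08 ± 0.08 SE did not pass. Kcnk2 lies on the minus strand of chromosome 1 from 189207930 to 189402273 (mm10), and an antisense gene that shares 604 bp of its exons, A430027H14Rik, was at or below 0.0871 FPKM in the 6 libraries.

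Tmem63a and Tmem63b encode channels opened by membrane tension with a high threshold, and followed Piezo1 in abundance. Tmem63a read 21.5, 23.0 and 22.8 FPKM with conditioned medium and 23.3, 22.7 and 22.2 FPKM in control medium. Its groups overlapped, with a log2 fold change of -0.02 ± 0.04 SE. Tmem63b read 17.7, 17.1 and 16.3 FPKM with conditioned medium and 18.0, 18.3 and 19.9 FPKM in control medium. Its conditioned libraries were all below the controls, by a narrow gap, and the log2 fold change of -0.13 ± 0.05 SE did not pass. Tmem63a lies on the plus strand of chromosome 1 from 180942344 to 180975112, and Tmem63b on the minus strand of chromosome 17 from 45660171 to 45686905 (mm10). The antisense gene Gm16172 shares 288 bp and the opposite-strand gene Mrpl14 106 bp with the exons of Tmem63b. Mrpl14, a mitochondrial ribosomal protein, was at 20.4, 17.6 and 17.5 FPKM with conditioned medium and at 13.3, 15.9 and 17.6 FPKM in control medium.

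**Figure D3:**
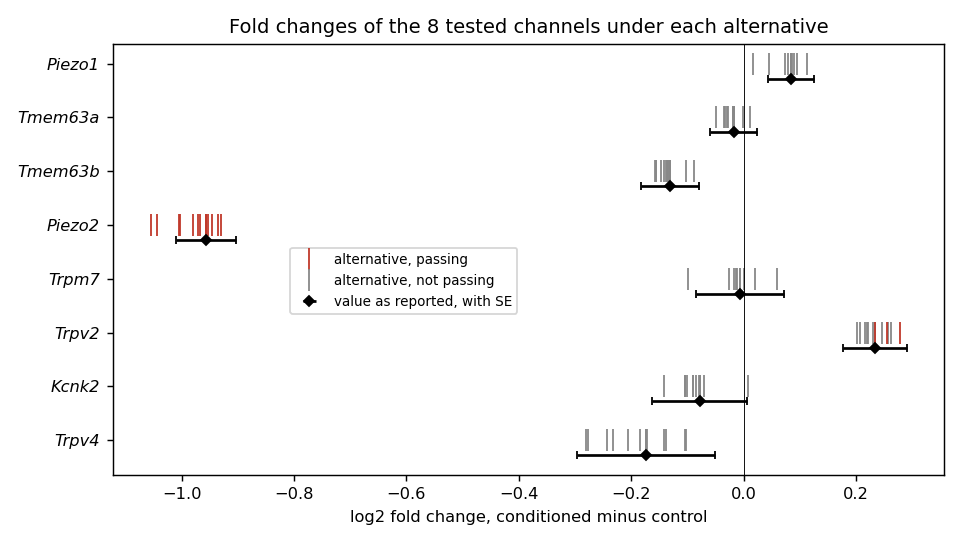
Log2 fold changes (conditioned minus control) of the 8 tested channels, as reported with SE (diamonds) and under each alternative setting (ticks, red where the adjusted p was below 0.05). The ticks of Piezo2 run from -1.06 to -0.93 and are all red, those of Trpv2 are red in 3 of 15, and those of the other 6 channels are grey.

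In control medium the order of levels, in FPKM as deposited, was Piezo1, Tmem63a, Tmem63b, Piezo2, Trpm7, Trpv2, Kcnk2, Trpv4 and Trpc1. Another choice of gene length could alter this order. The libraries of neighbouring genes in that order did not overlap, except for Trpm7 and Trpv2 and for Kcnk2 and Trpv4. With conditioned medium Piezo2 stood 6th, behind Trpv2 and Trpm7. There each Trpv2 library was above each Trpm7 library and each Trpm7 library above each Piezo2 library, while Kcnk2 and Trpv4 overlapped again. The control level of Piezo2 was at the 86.9th percentile of the genes in the table, and those of Tmem63a and Tmem63b were at the 91.6th and 89.8th. The summed FPKM of the 9 channels was 131, 134 and 134 with conditioned medium and 141, 139 and 133 in control medium, so the totals overlapped. Piezo1 alone gave 47.0 ± 0.254% of that sum with conditioned medium and 42.7 ± 0.770% in control medium (SD, n = 3 each).

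**Figure D4:**
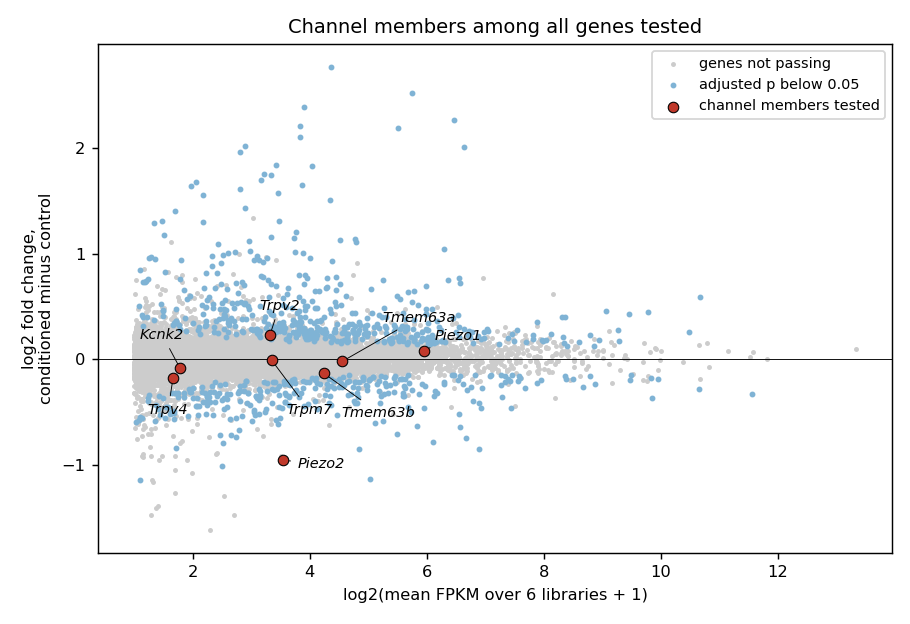
Log2 fold change (conditioned minus control) against log2(mean FPKM + 1) for the 11678 genes tested, with the 763 genes that passed in blue and the 8 tested channels in red. Piezo2 lies at -0.96, near the lower edge of the cloud at its level, and the other 7 channels lie between -0.17 and 0.23.

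Other channels linked to stretch, swelling or ion balance were taken from lists drawn up by function: TRP relatives, potassium channels, and further mechanical or swelling-activated channels. These lists, and those of partner and calcium genes below, were drawn up with earlier results of these data known. Their calls are given as a description. Of 43 listed genes 35 had values, 17 reached a mean of 1 FPKM, and 0 were higher, 1 was lower and 16 did not pass, with a median log2 fold change of -0.05. Over all tested genes 6.53% passed, and 1 of 17 is near that share, so nothing is read from this count. Tmem120a, a membrane protein proposed as a mechanical channel in sensory neurons and disputed in that role, was at 18.0, 16.1 and 17.4 FPKM with conditioned medium and at 20.7, 19.4 and 20.9 FPKM in control medium. It was lower by a log2 fold change of -0.23 ± 0.05 SE (limma adjusted p = 0.0417), a call lost when any of the 6 libraries was left out. The most abundant TRP relatives were Pkd1 and Pkd2, the polycystins of primary cilia, with log2 fold changes of -0.04 ± 0.06 SE and 0.08 ± 0.05 SE that did not pass.

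Among potassium channels only the 2-pore channel gene Kcnk6 and the inward rectifier gene Kcnj2 reached the filter, at log2 fold changes of 0.0016 ± 0.08 SE and -0.08 ± 0.09 SE, neither of which passed. Gja1, the gap junction protein connexin 43, and Ano6, a calcium-activated lipid scramblase and channel, were the most abundant of the further channels. Gja1 read 25.6, 25.3 and 24.9 FPKM with conditioned medium, below 27.8, 26.1 and 26.6 FPKM in control medium, and its log2 fold change of -0.08 ± 0.04 SE did not pass (limma adjusted p = 0.290). Ano6 overlapped between the groups at -0.01 ± 0.05 SE.

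Of 7 genes whose proteins bind or tune Piezo channels, 6 had values and were tested, of which 1 was higher and 5 did not pass. Over all tested genes 4.04% were higher. The gene that rose, Atp2a2, encodes the pump SERCA2, which returns calcium to the endoplasmic reticulum and binds Piezo1. It was at 68.2, 68.6 and 69.2 FPKM with conditioned medium and at 63.7, 62.1 and 59.9 FPKM in control medium, a log2 fold change of 0.15 ± 0.04 SE (limma adjusted p = 0.0464). That call was kept in 5 of 15 alternatives and was lost without any one library except control replicate 1. Anxa6, a calcium-dependent membrane-binding annexin and the most abundant of these genes, read 174, 171 and 171 FPKM with conditioned medium and 185, 177 and 185 FPKM in control medium, and did not pass (-0.08 ± 0.03 SE, limma adjusted p = 0.210).

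Among genes that carry, store or read calcium, counted together with the Piezo partners, 46 were listed, 45 had values and 39 were tested. Of the 39, 2 were higher, 1 was lower and 36 did not pass, with a median log2 fold change of -0.0032. The share that passed was near the 6.53% of all tested genes, so nothing is read from this count. Camk2g, a subunit of calmodulin-dependent kinase II, rose to 26.6, 26.6 and 26.2 FPKM with conditioned medium, against 20.8, 21.9 and 21.2 FPKM in control medium. Its log2 fold change was 0.30 ± 0.04 SE (limma adjusted p = 0.00225), kept in 15 of 15 alternatives. Cacna1g, the pore of a T-type calcium channel that opens near resting voltage, fell to 8.66, 9.12 and 8.65 FPKM with conditioned medium, against 11.1, 10.8 and 11.0 FPKM in control medium. That was a log2 fold change of -0.28 ± 0.04 SE (limma adjusted p = 0.00712), kept in 14 of 15 alternatives.

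Calm2 and Calm3, genes for the calcium sensor calmodulin, were at 179 to 184 and 145 to 155 FPKM with conditioned medium and at 179 to 189 and 151 to 161 FPKM in control medium, and did not pass. Cacnb3, an auxiliary subunit of voltage-gated calcium channels, overlapped between the groups with a log2 fold change of -0.02 ± 0.05 SE.

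**Figure D5:**
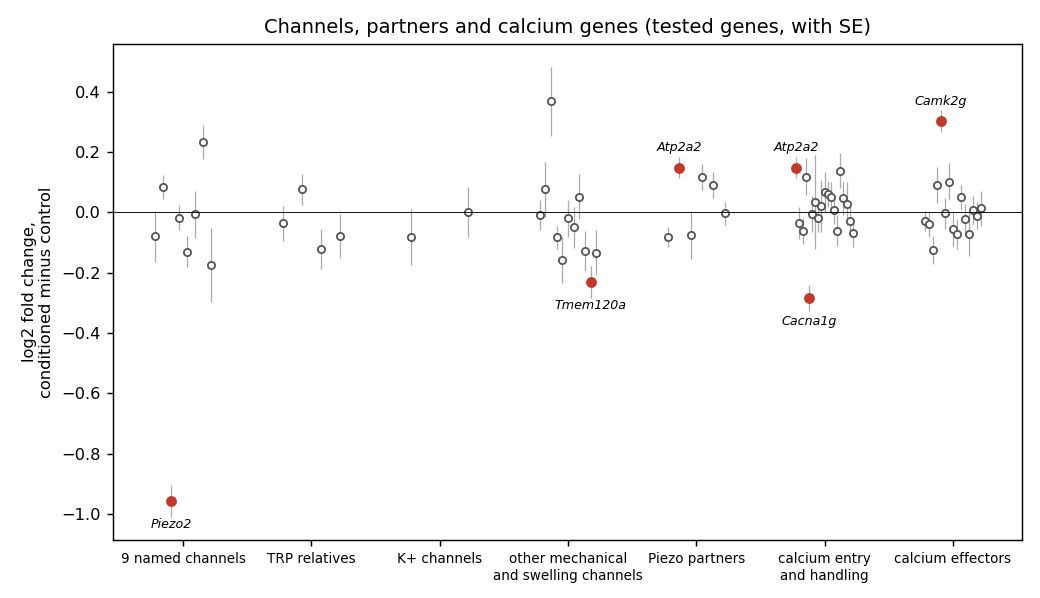
Log2 fold changes (conditioned minus control) with SE of the tested genes of the 9 channels and 6 related lists; filled red points have an adjusted p below 0.05, and Atp2a2 is in 2 lists. Piezo2 at -0.96 lies below every other point, and the named passing genes of the related lists lie between -0.28 and 0.30.

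Several markers of tendon, the labelled tissue, were lower with conditioned medium, as Piezo2 was. Of 9 tested tendon markers 5 were lower (Tnmd, Col1a1, Col1a2, Fmod and Thbs4), 0 were higher and 4 did not pass. Over all tested genes 2.49% were lower and 4.04% higher. Of the 4, Pdgfra lay above its controls at a log2 fold change of 0.17 ± 0.04 SE. Scx lay below its controls at -0.18 ± 0.05 SE, and Mkx and Tnc overlapped between the groups. The list summed to 3659 to 3758 FPKM with conditioned medium and 4612 to 4728 FPKM in control medium, most of it Col1a1 and Col1a2. Of the 5 tested mural cell markers 1 was higher, Myh11, the myosin of smooth muscle (limma adjusted p = 0.00238), and 4 did not pass. Acta2 lay above its controls without passing, while Notch3 and Des lay below theirs, at log2 fold changes of -0.20 ± 0.05 SE and -0.27 ± 0.08 SE, also without passing. Rgs5, under the filter, was at 0.440 to 0.546 FPKM with conditioned medium and at 0.748 to 1.06 FPKM in control medium. The mural markers thus did not move one way, and their sum of 2337 to 2379 FPKM with conditioned medium and 2145 to 2298 FPKM in control medium was nearly all Acta2. Tek was the only endothelial marker of 5 to reach the filter and was lower (limma adjusted p = 0.0234), and the list summed to 4.39 to 4.87 FPKM with conditioned medium and 5.76 to 6.54 FPKM in control medium, with Pecam1, Cdh5 and Vwf at or below 0.0830 FPKM. Of the Schwann cell and macrophage markers 2 each were tested and 0 passed. S100b (Schwann) and Lyz2 (macrophage) lay below their controls, at log2 fold changes of -0.47 ± 0.14 SE and -0.40 ± 0.11 SE. Pmp22 (Schwann) and Cd68 (macrophage) overlapped between the groups, at 0.05 ± 0.04 SE and 0.14 ± 0.11 SE. Under the filter, the Schwann markers Fabp7 and Mbp lay below and above their controls. The Schwann list summed to 85.7 to 90.3 FPKM with conditioned medium and 83.0 to 87.3 FPKM in control medium, nearly all of it Pmp22. The macrophage list summed to 3.21 to 4.14 FPKM with conditioned medium and 3.63 to 5.09 FPKM in control medium. The marker lists were drawn up with earlier results known, and the genes named from them were picked after their values were seen. Their adjusted p-values are therefore a description. The part of these cell types in the difference of Piezo2 was not tested.

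Markers of sensory neurons, a main site of Piezo2, were low in both groups. Of 11 neuron markers 8 had values, none of these 8 reached a mean of 1 FPKM, and their sum was 1.96 to 2.46 FPKM with conditioned medium and 2.63 to 2.89 FPKM in control medium. The highest of the 8 were Stmn2, Isl1 and Nefm, at 0.631 to 0.816, 0.443 to 0.839 and 0.460 to 0.619 FPKM with conditioned medium and at 0.762 to 0.992, 0.776 to 0.934 and 0.469 to 0.607 FPKM in control medium. Calca, Scn9a and Nefl were at 0 in at least 1 library. The part of sensory neurons in the difference of Piezo2 was not tested.

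Across the 6 libraries, the genes whose log2(FPKM + 1) most resembled Piezo2, among 7087 tested genes averaging 5 FPKM or more, were Col14a1, Sema3c and Lgr5. Their Pearson r was 0.998, 0.997 and 0.997, and 154 genes reached at least 0.95. The libraries fall into the groups of the study, so r mostly describes a shared difference between the media, and it is given as a description. Col14a1, a collagen that binds other collagen fibrils, was at 26.0, 27.0 and 27.0 FPKM with conditioned medium and at 42.7, 42.1 and 38.5 FPKM in control medium. Sema3c, a secreted semaphorin, was at 19.0, 19.7 and 19.8 FPKM with conditioned medium and at 38.8, 36.5 and 32.6 FPKM in control medium. Lgr5, a receptor for R-spondins, was at 3.86, 4.03 and 4.25 FPKM with conditioned medium and at 7.87, 7.41 and 6.86 FPKM in control medium. Each had its lowest control value in control replicate 3, as Piezo2 did, which follows in part from how they were picked.

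For Piezo1 the closest genes were Fnbp1, a membrane-curving protein of endocytosis, Fndc3b, and Man2a1, a mannosidase of the Golgi, with r of 0.994, 0.993 and 0.989, and 58 genes reached at least 0.95. Fndc3b was at 39.2, 39.2 and 39.0 FPKM with conditioned medium and at 38.1, 37.3 and 33.9 FPKM in control medium. None of the 3 passed, and like Piezo1 they were lowest in control replicate 3. They were picked for likeness over these same libraries, so the shared low library largely follows from that choice.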

How the data were processed

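The authors deposited FPKM values, 1 per gene and library, for 24413 genes. CASAVA, HISAT2 2.0.5 and the build mm10 appear in the submitters' processing notes without a stated role. Not given in the sources used here are the fragment counter, annotation, strand setting and any scaling between libraries. Per the labels' protocols, libraries were poly-A selected. Within each gene the values were whole multiples of 1 fragment (24413 of 24413 genes, tolerance 0.0001 fragment). For 23552 genes this held at the GENCODE M21 exon length. For the rest, Piezo2 among them, a length that made the values whole was searched for, so wholeness there is no separate check. The recovered fragments gave the depth and 1 alternative, and their sum differed from the total implied by the scaling by -0.0119% to 1.07% of that total. Chi-square per degree of freedom between libraries of a group was 3.03 to 6.56, so none was a copy.

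Values were log2(FPKM + 1). The 11678 genes averaging 1 FPKM or more were fitted with limma 3.58.1 (R 4.3.3; moderated, trend and robust, two-sided, no covariate, Benjamini-Hochberg threshold 0.05), after tests on simulated data. Tables and figures used Python 3.11.15, pandas 2.3.3, numpy 2.4.6 and matplotlib 3.10.9. Of the gene IDs, 24394 were in GENCODE M21.

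The members, lists, tests and alternatives were chosen with earlier results of these data known. Named were the 9 members, every passing gene and the 2 most abundant genes of each related list, the 3 genes most like each Piezo gene, and their nearest expressed neighbours. A few genes of the lists are not reported here and were left out of the list counts and sums. Marker genes named beside the results and overlapping genes were picked after their values were seen. Alternatives covered the pseudocount, filter, scaling, variance prior, voom on fragments, a replicate block and leaving out each library.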

Additional observations from a re-analysis of the deposited data

How the results depend on the processing

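The log2 fold change of Piezo2 stayed past the threshold in 15 of 15 alternatives, which reuse the same libraries and are not a new test. Piezo1, Trpv4 and Tmem63b kept their direction without passing in each alternative that could be run (15, 14 and 15). Trpv2 kept its direction in 15 and passed in 3. The genes passing numbered 763, against 492 with no filter on low values, 1147 with voom on recovered fragments, 390 with the replicate block and 394 to 678 without 1 library. Of the 9 channels 1 passed, against 2 with a filter at 5 FPKM and with voom, and 1 to 2 without 1 library. Of the other channel genes 1 passed, against 0 with no filter, a constant variance prior or the replicate block, and 0 without any 1 library. Of the partner and calcium genes 3 passed, against 1 with the replicate block and 2 to 3 without 1 library. Near-zero fold changes turned direction: Trpm7 was 0.00054 without conditioned replicate 1, 0.059 without control replicate 1 and 0.020 without control replicate 2, in a range of -0.098 to 0.059 without 1 library. Tmem63a was 0.010 without conditioned replicate 1 (range -0.036 to 0.010), and Kcnk2 was 0.0072 without control replicate 1 (range -0.14 to 0.0072). The cause was not tested. Deviations of same-numbered libraries from their group means had correlations of -0.0948, -0.0080 and -0.0476, so no pairing by number was seen. Such values from 3 libraries a group cannot settle whether same-numbered libraries share animals, which the labels do not give.

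With 3 libraries a group, a missed threshold does not show that a channel was unaltered. Trpc1 and Trpv4 rest on 79 to 138 and 130 to 232 fragments with conditioned medium and on 94 to 134 and 179 to 269 in control medium. Transcript levels say nothing of channel protein or current.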
